A study of Mus musculus with 4 samples.

Results

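Fatty acid uptake and transport in white adipose tissue was followed here through a set of 9 genes: Lpl, Gpihbp1, Cd36, Slc27a1, Slc27a4, Acsl1, Cav1, Fabp4 and Aqp7. Every probe to which the platform annotation gives 1 of these symbols was taken, without regard to its signal. The annotation names 13 such probes among the 45281 on the array, for 8 of the 9 genes, and all 13 were detected on all 4 arrays (detection p-value below 0.01). Acsl1, a long-chain acyl-CoA synthetase, had no probe under that symbol and was not analysed here.

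The study asked how gene expression in adipose tissue differs after a high fat diet was fed over successive generations. RNA of white adipose tissue from female C57BL/6 mice, aged 9 months in every group, was hybridised to Illumina bead arrays. The control array held RNA mixed from 3 samples of mice kept on normal chow for 9 months. Each of the other 3 arrays held 4 mixed samples from mice given a feed with 60% of its calories as fat over 9 months, and these arrays stand for generations F0, F1 and F2 in turn. Neither the fat depot nor the number of animals behind each mix is named, and all 4 groups share strain, sex and age. A difference between 2 single arrays has no replicate behind it, and how few arrays there are bounds the precision of every value. In bulk tissue, fewer cells of a type and less RNA per cell cannot be told apart.

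White adipocytes take most of their fatty acids from lipoproteins in the blood. Lipoprotein lipase, held on the capillary wall by its endothelial anchor, cleaves lipoprotein triglycerides, and the freed fatty acids enter the adipocyte with the help of membrane proteins, are bound in the cytosol and are joined to coenzyme A for storage. When stored fat is broken down, its glycerol leaves through a channel in the membrane. Several of these genes are known targets of the nuclear receptor Pparg, which binds with its partner Rxra to a repeat of the letters AGGTCA with 1 base between the copies.

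That repeat was looked for, with up to 2 mismatches over its 13 bases and on both strands, in the RefSeq promoters of the set (GRCm38.p6, 250 bases before to 50 bases after each start). RefSeq promoters were at hand for 6 of the members, 11 promoters in all; Lpl, Fabp4 and Gpihbp1 had no entry. The repeat occurred in 4 of the 11, which belong to Aqp7, Cd36 and Cav1, against 3.86% of all 32851 promoters of this length. No match lay in the windows of Slc27a1, Slc27a4, Acsl1 or the other Cav1 start, which says only that these letters are not in those windows. Aqp7, Cd36 and Cav1 were highest on the F0 array. Slc27a1, without a match, and Fabp4 and Gpihbp1, without an entry, were highest there too. Below are 3 of the matching promoters, 1 for each gene with a match. They are written 5′ to 3′ along the gene's strand with the match in capitals; each match has 2 mismatches, and the fourth promoter, of another Aqp7 start, overlaps the first, shares its match and holds 1 more.
Aqp7, chr4:41048087-41048386, minus strand, match on the opposite strand at -56 to -44 from the start: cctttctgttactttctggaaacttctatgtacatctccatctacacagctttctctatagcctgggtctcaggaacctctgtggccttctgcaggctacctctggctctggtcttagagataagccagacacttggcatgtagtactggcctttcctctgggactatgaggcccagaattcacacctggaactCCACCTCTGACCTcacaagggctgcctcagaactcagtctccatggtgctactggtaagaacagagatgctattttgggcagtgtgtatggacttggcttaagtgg
Cd36, chr5:17835847-17836146, minus strand, match on the opposite strand at -63 to -51 from the start: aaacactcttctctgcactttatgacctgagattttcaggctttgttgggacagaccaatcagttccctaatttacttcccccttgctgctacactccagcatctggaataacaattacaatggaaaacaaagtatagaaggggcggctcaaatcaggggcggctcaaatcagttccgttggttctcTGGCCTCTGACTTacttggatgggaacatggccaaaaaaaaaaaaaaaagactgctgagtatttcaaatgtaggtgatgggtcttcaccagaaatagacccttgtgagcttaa
Cav1, chr6:17307390-17307689, plus strand, match on the same strand at -144 to -132 from the start: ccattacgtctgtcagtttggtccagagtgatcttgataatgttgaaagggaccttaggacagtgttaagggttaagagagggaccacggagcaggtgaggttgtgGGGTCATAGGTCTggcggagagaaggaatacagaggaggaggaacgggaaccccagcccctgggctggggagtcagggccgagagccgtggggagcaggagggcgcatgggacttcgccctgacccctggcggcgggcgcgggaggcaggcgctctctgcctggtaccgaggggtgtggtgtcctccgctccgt
A match describes the letters of the window and is not a measured binding site.

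Signals are given first as deposited, on a linear scale with the same mean of 274.4 on each array, and then as log2 signals after background correction and quantile normalization. Probes differ in brightness for reasons other than transcript number, so no probe's level is set against another's. As a yardstick for a log2 difference, the probes of 1 gene differed from each other with an SD of 0.31 (F0), 0.29 (F1) and 0.31 (F2) in the comparisons with chow, over 3069 genes with several detected probes. Among the high fat arrays that SD was 0.16 for F1 against F0, 0.21 for F2 against F1 and 0.24 for F2 against F0. It covers probe error and does not cover variation between animals. A gene was counted as apart between 2 arrays at 2-fold, a log2 difference of 1.

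At the capillary wall, Lpl, the lipase itself, differed little between chow, F0 and F1 and was lowest on the F2 array. Its bright probe (ILMN_2692723) gave deposited signals of 23717 on chow, 25364 on F0, 26553 on F1 and 20893 on F2. The log2 signals were 14.57, 14.63, 14.68 and 14.25 in that order. This probe lies close to the top of the measured range, where the brightest probe of each array reached 27618 or more. The F2 array was lower than chow by a log2 difference of -0.32 and lower than F1 by -0.43, while F0 and F1 were 0.06 and 0.11 above chow. The first of these differences is about the size of the spread between probes and the second is larger than it. With each array scaled to its median they were -0.17 and -0.37, and on the authors' value table -0.18 and -0.36. The first then lay inside that spread. A dim Lpl probe (ILMN_2585447), annotated to a different transcript record, gave 96.1, 85.8, 89.6 and 88.4 and was highest on chow and lowest on F0.

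Gpihbp1, the endothelial protein that carries the lipase to the capillary lumen and anchors it there, was lowest on the F2 array. Its deposited signals were 1178 on chow, 1592 on F0, 1590 on F1 and 815.8 on F2. The log2 signals were 10.17, 10.59, 10.57 and 9.59. F0 and F1 lay 0.42 and 0.41 above chow, and F2 lay at -0.58 relative to chow, so the high fat arrays fell on both sides of the control. The step from F1 to F2 was -0.99, and F2 was 2.002-fold lower than F0, just past 2-fold. The other Gpihbp1 probe gave 1036, 1373, 1493 and 760.5. Its differences were 0.41, 0.51 and -0.47 against chow and -0.88 for F2 against F0, the same directions as the brighter probe, with the last of them short of 2-fold.

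Genes that act on the lipase lay on both sides of chow. Of 16 listed, 12 were measured. Past 2-fold from chow, 2 stood above and 2 below on F0, 2 and 1 on F1, and 2 and 2 on F2, with medians of 0.08, 0.47 and 0.27 on the log2 scale. Angptl4, a secreted inhibitor of the lipase, had log2 signals of 12.13 on chow, 13.18 on F0, 12.99 on F1 and 12.79 on F2. All 3 high fat arrays were therefore above chow, by 1.05, 0.86 and 0.67, and limma's test of the 3 against chow gave 0.86 ± 0.20 (SE) with an adjusted p of 0.0769. Lmf1, which the lipase needs to fold, was below chow on all 3, at 8.69, 8.27, 8.27 and 8.06. Sorl1, a sorting receptor that binds the lipase, had log2 signals of 10.04, 8.03, 8.25 and 9.06, with chow the highest. Apoc3, an apolipoprotein that restrains the lipase, gave 7.02, 6.90, 8.72 and 9.99 and was the 1 gene of this list called by limma for a slope over the generations (1.55 ± 0.11 per generation, adjusted p = 0.00349). Apoc3 is made mainly in the liver, and 5 of 6 measured liver markers were also called as rising in that slope fit. All such slope calls depend on the scaling, as given with those of the members. Of 7 lipoprotein receptors, 5 were measured, and Msr1, a scavenger receptor of macrophages, was not detected on chow and at least 2.14-fold higher on F0, 2.14-fold on F1 and 2.29-fold on F2 (limma, adjusted p = 0.0306).

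**Figure D1:**
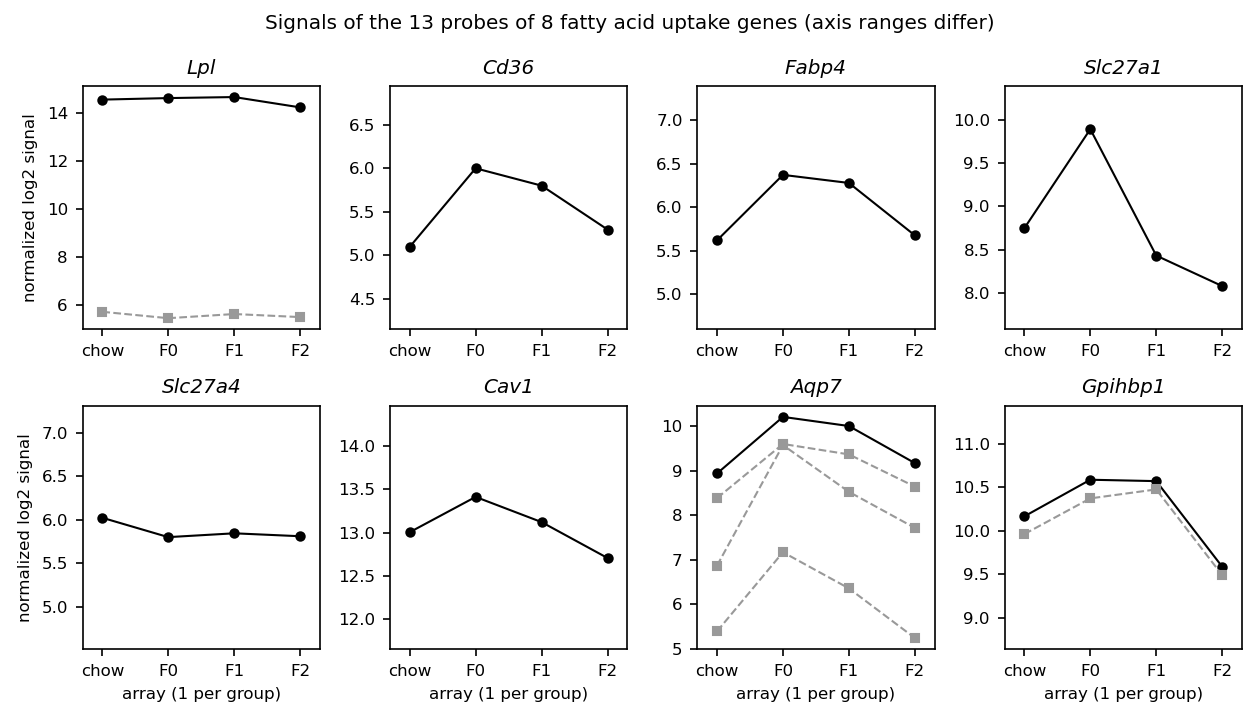
Normalized log2 signal (vertical axis, range differs between panels) of each of the 13 probes on each array (horizontal axis, from chow to F2, 1 array per group, so no error bars). Black circles mark the brightest probe of a gene and grey squares its other probes; 6 of the 8 black lines peak on F0 and the Slc27a4 line is nearly flat.

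Taking the brightest probe of each gene, Slc27a1 spanned the widest range in the set. Slc27a1 (Fatp1), a fatty acid transport protein with acyl-CoA synthetase activity, gave deposited signals of 489.4 on chow, 988.1 on F0, 380.3 on F1 and 317.2 on F2. The log2 signals were 8.75, 9.89, 8.43 and 8.08. F0 stood alone above chow, by 1.14 (2.20-fold), while F1 and F2 were below it, at -0.31 and -0.67. From F0 to F1 the signal was 2.74-fold lower (log2 difference -1.46), and from F0 to F2 it was 3.50-fold lower (-1.81). Only 8 of the 11384 genes were at least 2-fold lower on F1 than on F0, and Slc27a1 was 1 of them. A single probe (ILMN_2690122) stands behind these values, so no other probe can be set beside it.

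Slc27a4 (Fatp4), a second member of the same family, was nearly level. Its deposited signals of 108.8, 95.8, 96.6 and 99.4 gave log2 signals of 6.02 on chow, 5.80 on F0, 5.84 on F1 and 5.81 on F2. All 3 high fat arrays were lower than chow, by less than the spread between probes. That depends on the scaling: F0 and F1 lay at -0.41 and -0.31 against chow with median scaling, and at -0.57 and -0.44 on the authors' value table, past that spread. The probe lay 0.91 to 1.20 log2 units above the lowest detected signal of its array.

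Cd36, a membrane receptor that helps fatty acids into the cell, was highest on F0 and lowest on chow. Deposited signals were 75.3 on chow, 103.6 on F0, 95.1 on F1 and 81.4 on F2, and log2 signals 5.10, 6.00, 5.80 and 5.30. The differences from chow were 0.91, 0.71 and 0.20, the first and second larger than the spread between probes. This probe was dim: it lay 0.27 log2 units above the lowest detected signal on chow, where its detection p-value was 0.00107, and 0.53 to 1.11 above it on the other arrays. Without background correction the differences of F0 and F1 shrank to 0.48 and 0.36, so the size for Cd36 rests on that step.

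Cav1, the coat protein of the caveolae that crowd the adipocyte membrane, had deposited signals of 8138 on chow, 10782 on F0, 8885 on F1 and 6836 on F2. In log2 units these were 13.00, 13.41, 13.12 and 12.71. The order ran from F0 through F1 and chow to F2. F0 exceeded chow by 0.41, F2 lay at -0.30 against chow, and F2 was 1.63-fold lower than F0 (-0.70). Of 9 other caveolar genes, 8 were measured. On F0, Ehd2, which sits at the caveolar neck, and Cav2, the partner of Cav1 in the coat, were at least 2-fold above chow (1.17 and 1.02), and the median of the 8 was 0.47. On F2 the median against chow was -0.23, and Pacsin3 was at least 2.02-fold lower, being not detected there. Between F0 and F2 all 8 were lower on F2, by -0.38 to -0.95 with a median of -0.71, and none reached 2-fold.

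Among fatty acid transporters and acyl-CoA synthetases outside the set, 12 of 12 listed were measured. Acsm3, a medium-chain acyl-CoA synthetase, fell on the high fat arrays, from a log2 signal of 9.62 on chow to 5.87, 5.40 and 5.38 (limma, -4.08 ± 0.30, adjusted p = 0.0146). Slc27a2 and Slc27a5, family members typical of liver, and Mfsd2a, a lysophospholipid transporter, rose over the generations by limma's slope (adjusted p = 0.0198, 0.0177 and 0.0343). None of these 3 was detected on F0, and on F2 they were at least 4.13-fold, 3.80-fold and 2.72-fold higher than there.

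In the cytosol, Fabp4, the fatty acid binding protein that is a hallmark of adipocytes, gave deposited signals of 91.3 on chow, 120.8 on F0, 115.8 on F1 and 94.1 on F2. The log2 signals were 5.62, 6.37, 6.28 and 5.68. F0 and F1 were above chow by 0.75 and 0.66, more than the spread between probes, and F2 by 0.06, less than it. Its 1 probe was dim for a gene known for abundant adipocyte expression, at 0.80 to 1.48 log2 units above the lowest detected signal, and why was not tested. Without background correction the Fabp4 differences of F0 and F1 from chow shrank to 0.46 and 0.40. Of 12 other lipid binding proteins listed, 8 were measured and only Fabp3, the heart-type family member, was 2-fold apart from chow, on F2 (-1.14). Over the 8, the median difference from chow was 0.17 on F0, 0.14 on F1 and -0.15 on F2.

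Aqp7, the channel through which glycerol leaves the adipocyte, was the member furthest above chow on both F0 and F1. Its brightest probe (ILMN_1254953) gave deposited signals of 550.7 on chow, 1227 on F0, 1075 on F1 and 626.8 on F2. The log2 signals of 8.93, 10.20, 10.00 and 9.17 put F0 and F1 above chow by 1.27 (2.41-fold) and 1.06 (2.09-fold) and F2 by 0.23. F2 was 2.05-fold lower than F0. All 4 Aqp7 probes had this order of F0 above F1 above F2. A second probe (ILMN_2943165) gave 164.7, 790.1, 402.4 and 256.4, the probe ILMN_1223330 gave 390.7, 803.6, 693.3 and 447.7, and the dimmest (ILMN_2607964) 84.0, 178.7, 120.2 and 79.9. Across the 4 probes the log2 difference from chow was 1.21 to 2.70 on F0, 0.96 to 1.65 on F1 and -0.15 to 0.85 on F2, and F2 was below F0 by -0.96 to -1.92. The 4 thus shared their direction for F0 and F1, differed in size by more than the usual spread between probes, and did not share a direction for F2 against chow.

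Genes of glycerol handling other than Aqp7 mostly lay below chow on F1 and F2. Of 9 listed, 8 were measured, and 5, 7 and 7 of these were below chow on F0, F1 and F2. Of all genes, 51.0%, 51.6% and 56.4% were below it. On F0, F1 and F2, 2, 4 and 4 of the 8 were at least 2-fold below chow, beside 6.64%, 6.31% and 8.24% of all genes. At least 2-fold above it were 0, 1 and 1, beside 6.7%, 7.38% and 9.35%. Gpd2, the mitochondrial glycerol phosphate dehydrogenase, fell from 10.44 on chow to 8.19, 8.01 and 8.01 (limma, -2.38 ± 0.18, adjusted p = 0.0146). Aqp3, another glycerol channel, fell from 6.04 on chow to signals not detected on the high fat arrays, at least 2.22-fold, 2.15-fold and 2.42-fold lower on F0, F1 and F2 (limma, adjusted p = 0.0199). Pck1, which supplies glycerol phosphate in fasting adipocytes, had log2 signals of 7.28, 6.65, 6.01 and 5.22, and Slc2a4, the insulin-responsive glucose transporter, 9.24, 8.52, 8.06 and 7.51. Both declined from array to array, and both fell by limma's slope (adjusted p = 0.0439 and 0.0470). Pparg itself was 11.24, 11.15, 11.15 and 10.68, and Rxra 6.37, 6.91, 6.71 and 6.20. None of the 7 measured genes of the Pparg list was 2-fold apart from chow on any array.

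Set against chow, the members were mostly higher on F0 and F1 and mixed on F2. On F0, 7 of 8 members were above chow at any size, with a median log2 difference of 0.59, where 49.0% of all genes were above and the median was -0.01. Of the 8, 2 were at least 2-fold higher (Slc27a1 and Aqp7) and 0 lower, beside 6.7% of all genes higher and 6.64% lower. On F1, 6 of 8 were above chow (median 0.26, against -0.02 for all genes). Of these, Lpl (0.11) and Cav1 (0.12) lay above it by less than the spread between probes. On that array 1 member (Aqp7) was at least 2-fold higher and 0 lower, beside 7.38% and 6.31% of all genes. On F2, 3 of 8 were above chow and 5 below (median -0.25, against -0.09), and 0 were 2-fold apart, beside 9.35% of all genes higher and 8.24% lower. These 3 comparisons share the chow array, so a difference of that array appears in each of them. The all-gene split on F0 depended on scaling: it was 5.46% higher and 8.35% lower with each array scaled to its median, and 6.64% and 10.6% from the authors' value table, where Cd36 also passed 2-fold. On F1 that table gave 7.48% and 9.8%.

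Between the high fat arrays the members were mostly lower in the later generation. From F0 to F1, 6 of 8 were lower (median -0.15); 1 (Slc27a1) was at least 2-fold lower, beside 0.0703% of all genes, and 0 were higher, beside 0.835%. From F1 to F2, 8 of 8 were lower (median -0.47, where 56.3% of all genes were lower and the median was -0.06), but 0 reached 2-fold in either direction, beside 3.11% of all genes higher and 0.791% lower. Of these, Slc27a4 was lower by less than the spread between probes (-0.03). It was higher on F2 with median scaling (0.10) and on the authors' value table (0.15). From F0 to F2, 7 of 8 were lower (median -0.70, where 54.1% of all genes were lower and the median was -0.05), and 3 were at least 2-fold lower: Slc27a1, Aqp7 and, just past the line, Gpihbp1. For that comparison 2.53% of all genes were at least 2-fold lower and 4.6% higher, or 1.73% and 5.51% with median scaling. With no background correction 1 member, Slc27a1, passed 2-fold from F0 to F2, since Aqp7 and Gpihbp1 sit so near the line.

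**Figure D2:**
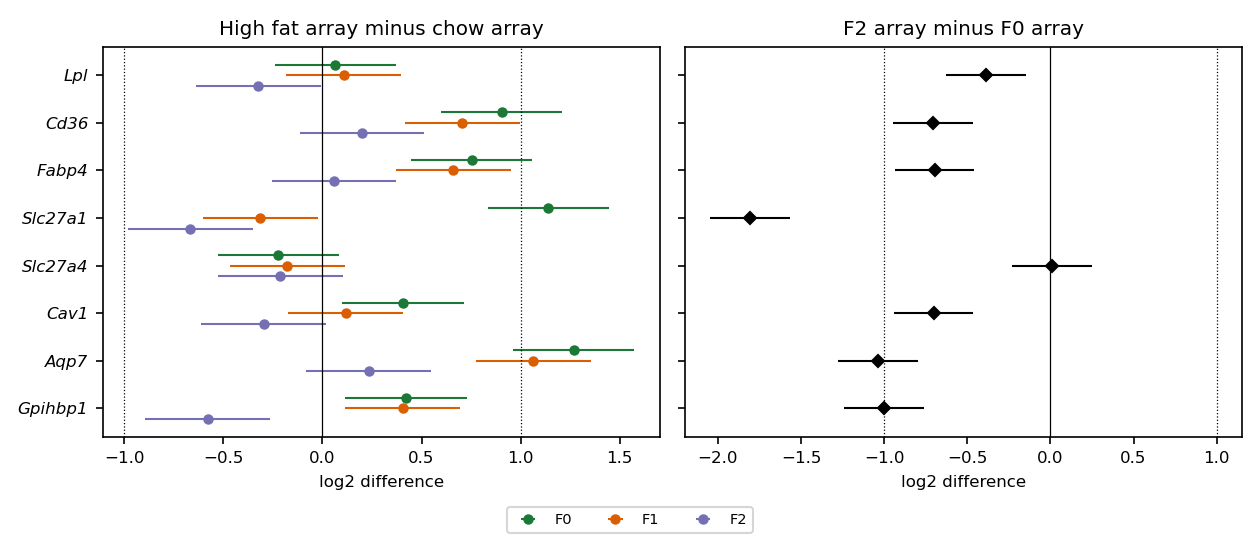
Log2 difference (horizontal axis) of each member's brightest probe, in the left panel for the F0, F1 and F2 arrays minus chow (by colour) and in the right panel for F2 minus F0. Horizontal lines are 1 SD between probes of a gene in that comparison and dotted lines mark 2-fold; F2 lies to the left of F0 for every member but Slc27a4, whose points nearly coincide.

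A test was possible only where arrays were pooled. With the 3 high fat arrays as 1 group against chow, limma (2 residual degrees of freedom, Benjamini-Hochberg adjustment over 11384 genes) called 0 of 8 members. Of all genes, 2.91% rose and 3.43% fell in that fit, or 1.26% and 6.81% on the authors' value table. Before adjustment, 0 of the 8 members had a limma p below 0.05, against 2826 of the 11384 genes. The 3 high fat arrays differ in generation, and that difference is part of the spread the test uses. Aqp7 came nearest, at 0.86 ± 0.43 (SE, adjusted p = 0.298), followed by Cd36 at 0.60 ± 0.34 (0.349) and Fabp4 at 0.49 ± 0.35 (0.448). The other 5 members had adjusted p-values from 0.608 to 0.972. This outcome changed when the F2 array was left out. Without it, limma called 4 members higher on F0 and F1 than on chow: Aqp7 by 1.17 ± 0.14 (adjusted p = 0.00203), Cd36 by 0.81 (0.0397), Gpihbp1 by 0.41 (0.0402) and Fabp4 by 0.71 (0.0469). In that fit 13.8% of all genes rose and 14.1% fell, and the lone chow array is assumed to vary as the high fat arrays do. Without F0 or without F1, 0 members were called. Of all genes, 5.01% rose and 4.36% fell without F0. Without F1 the shares were 0.00878% and 0%, so that fit could hardly have called a member.

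Over the 3 high fat arrays in the order F0, F1, F2, limma's slope (1 residual degree of freedom) fell for 3 of 8 members and rose for 0. Of all genes, 1.86% fell and 2.22% rose. Slc27a1 fell by 0.90 ± 0.15 per generation on the log2 scale (adjusted p = 0.0387), Cav1 by 0.35 ± 0.07 (0.0454) and Aqp7 by 0.52 ± 0.10 (0.0489). These calls lie close to the threshold and depend on the scaling. With median scaling 0 members were called (lowest adjusted p = 0.0693, with 0.509% of all genes rising and 0.141% falling), and from the authors' values 0 members (lowest 0.337) and 0% of all genes in either direction. The slopes themselves moved little: that of Slc27a1 was -0.89 with median scaling and -0.93 on the value table. Gpihbp1 had a slope of -0.50 ± 0.13 (adjusted p = 0.0734), and 6 of the 8 members, with Cd36 and Fabp4 among them, had an unadjusted p below 0.05, as did 3006 of all genes. Slc27a4 was level, at 0.01 ± 0.13.

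Markers of adipocytes and endothelium were also lower on F2 than on F0. Of 12 listed adipocyte markers, 10 were measured and all 10 were detected on every array. All 10 were lower on F2 than on F0, by -0.47 to -1.73 with a median of -0.67, beside -0.70 for the members. Their summed deposited signal was 56694 on chow, 88300 on F0, 78513 on F1 and 56306 on F2. Leptin (Lep), with log2 signals of 11.91, 14.51, 14.52 and 13.86, weighs on these sums: against chow, 9 of the 10 were lower on F2 (median -0.48) and Lep was the exception. On F0, 8 of the 10 were above chow (median 0.36), and on F1 5 of them were (median 0.03). By limma's slope over the generations 5 of these 10 fell (Plin1, Plin4, Lipe, Pnpla2 and Retn), beside 3 of the 8 members. Adiponectin (Adipoq), an adipocyte hormone, had log2 signals of 13.64, 13.68, 13.49 and 13.17, and perilipin 1 (Plin1) 9.24, 9.62, 9.34 and 8.31. Of 16 endothelial markers, relevant to Gpihbp1, 15 were measured, and 14 of the 15 were lower on F2 than on F0 (median -0.68). Their summed signal was 14906, 17151, 15520 and 11147. Pecam1, a junction protein of endothelium, was 8.91, 8.18, 8.32 and 8.25 and did not share the Gpihbp1 order, whereas Cdh5, endothelial cadherin, was 8.06, 8.22, 8.18 and 7.33. The part of adipocyte or endothelial content in the members' differences was not tested.

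Markers of several other cells differed from chow as well. The summed signal of 14 measured macrophage markers (of 15; Cd68 had none) was 10070 on chow, 29567 on F0, 41327 on F1 and 47881 on F2, and 12 of the 14 were at least 2-fold above chow on F2. Adgre1, the F4/80 antigen, had log2 signals of 8.13, 10.12, 10.72 and 11.05. The chow array had more signal from smooth muscle and mesothelium: 6 smooth muscle markers summed to 41974 there against 10523 to 14019 on the high fat arrays, and 6 mesothelial markers (of 7) to 5247 against 564 to 1081. Of 10 skeletal muscle markers, 6 were at least 2-fold lower on each high fat array, and Ckm was detected on chow only. Against that, Acta1 was 1.41 above chow on F0 and Pvalb 1.13 on F1, and the 10 summed to 4053 on chow, 4774 on F0, 3817 on F1 and 3105 on F2. Brown adipocyte markers, 5 of 7 measured, summed to 3632 on chow and 1572 to 1933 elsewhere, with Ucp1 not detected on F2. On F1 and F2, 6 liver markers (of 8) summed to 4112 and 9792, against 409 on chow and 532 on F0. On F2 alone, 3 B cell markers (of 6) summed to 4590, against 367 to 422, and 4 T cell markers (of 5) to 2516, against 450 to 507. The part of these cells in the members' differences was not tested.

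**Figure D3:**
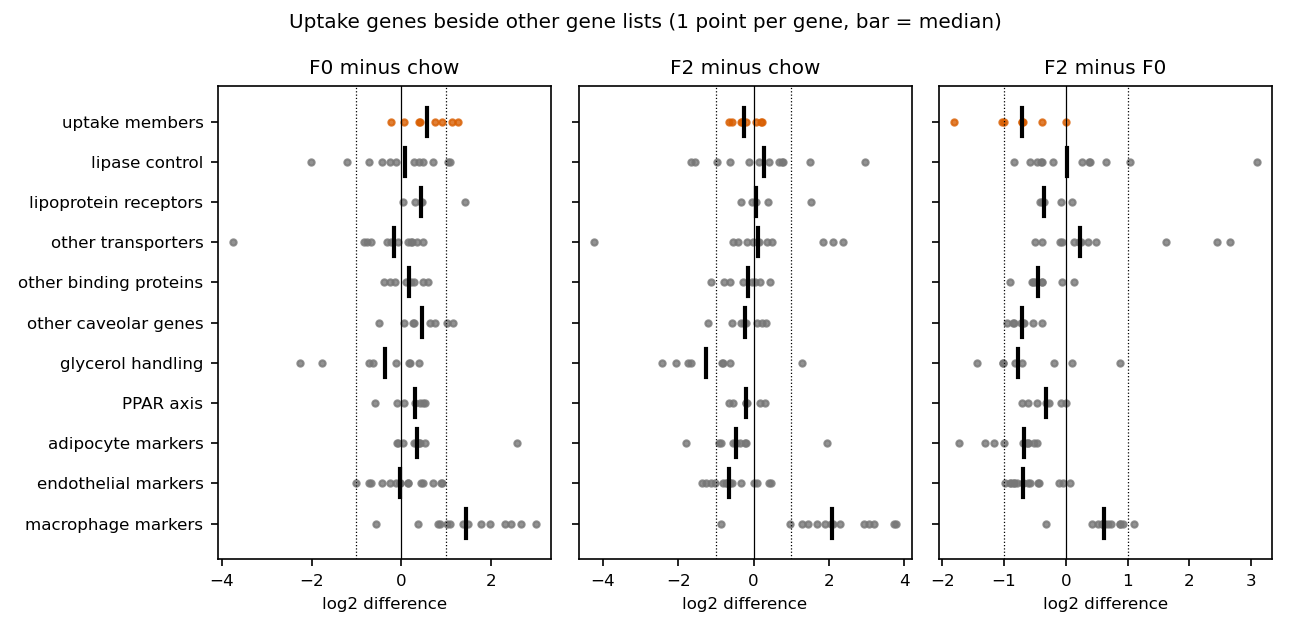
Log2 differences (horizontal axis) of the 8 members (orange) and of the measured genes of 7 related lists and 3 marker lists (grey), 1 point per gene and a bar at each list's median, for F0 minus chow, F2 minus chow and F2 minus F0. Dotted lines mark 2-fold. For F2 minus F0, medians of members (-0.70), caveolar genes (-0.71), glycerol handling (-0.76), adipocyte markers (-0.67) and endothelial markers (-0.68) lie together. Those of other binding proteins and of macrophage markers are at -0.45 and 0.63.

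The 3 members whose log2 signals spanned at least 1 across the arrays were set against 8735 other genes detected on all 4. Likeness was the root mean square difference of log2 signals, each gene centred on its own mean, so that 0 means the same pattern. The genes most like Slc27a1 were Slc1a5 (0.19), H1f10 (0.25) and Ephb1 (0.28). For Aqp7 they were Cpne2 (0.03), Ltc4s (0.04) and Nek6 (0.06). For Gpihbp1 they were Cdnf (0.02), Eepd1 (0.05) and Mid2 (0.05). Within a distance of 0.2 lay 351 genes for Gpihbp1, 152 for Aqp7 and 1 for Slc27a1. The genes named for Gpihbp1 and Aqp7 are thus the nearest of many. The distance is in unscaled log2 units, so a gene with a wider range tends to lie further from all others.

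**Figure D4:**
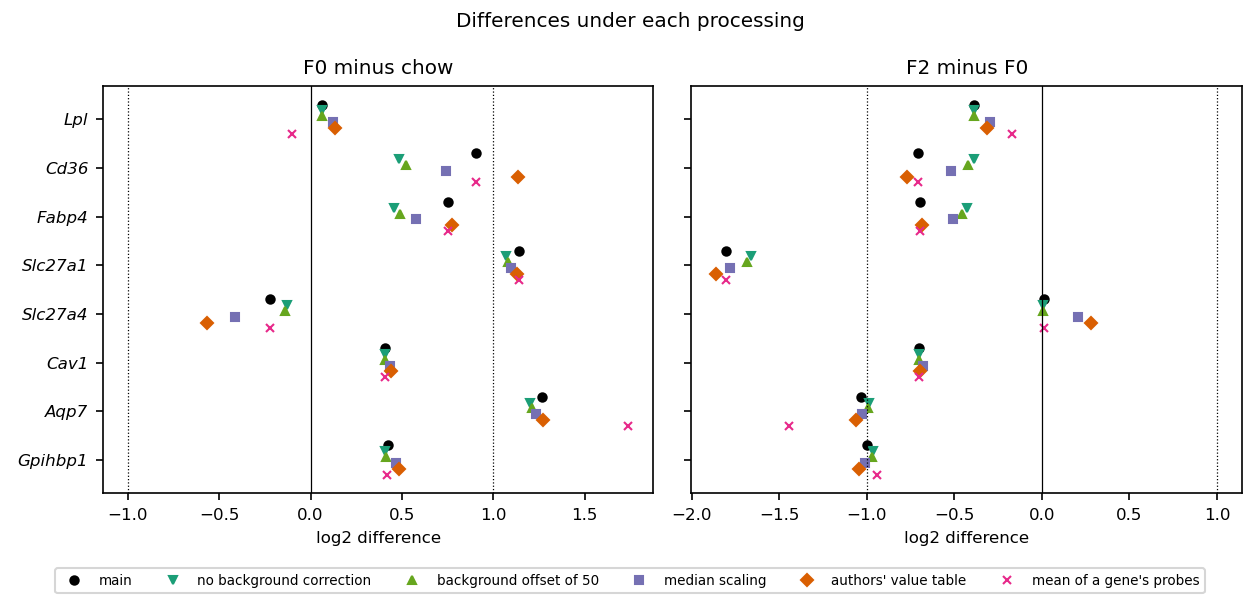
Log2 difference (horizontal axis) of each member for F0 minus chow (left) and F2 minus F0 (right) under the processing used here and 5 alternatives (symbols). Dotted lines mark 2-fold; Slc27a1, Cav1 and Gpihbp1 stay close together under all of them, while Cd36, Fabp4 and Slc27a4, whose probes are dim, and Aqp7, whose probes differ, spread more.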

How the data were processed

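White adipose RNA of 4 groups was hybridised to 4 Illumina bead arrays, 1 per group, each a mix of 3 or 4 samples. Per the submitters' processing notes the software was GenomeStudio 2010.2; no genome build is named. The authors deposited a linear-scale intensity for every probe on every array, with its detection p-value. The deposited intensity has the same mean on every array, so the arrays appear scaled to it, a step the labels do not state. The authors also gave values that are a straight-line function of that intensity, with 25.8 to 27.8% of values below 0, and this value table served as an alternative with a floor of 16.

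Intensities were corrected with limma's nec function (limma 3.58.1, R 4.3.3; which infers the negative controls from detection p-values; offset 16), quantile normalized over the 4 arrays and taken as log2. A probe was detected at a detection p-value below 0.01. Probe symbols came from the platform annotation (34885 of 45281 probes had 1 symbol, 18 several, 10378 none) and 34807 were matched by gene ID. Genes detected on at least 1 array numbered 11384, each taking its brightest probe; 37.8 to 40.9% of probes were detected per array. Differences between 2 arrays were described by size. Two-sided limma tests (lmFit and eBayes with a mean trend, Benjamini-Hochberg at 0.05 over all 11384 genes) compared the 3 high fat arrays with chow and fitted a slope over the generations. The p-values measure only the spread between these arrays.

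The members and lists were chosen with earlier results of these data known. Named genes were all members, up to 4 genes of each list with the largest difference from chow, and a fixed set of markers. Angptl4, Lmf1, Pparg, Adipoq, Plin1, Pecam1, Cdh5, Adgre1, Ckm and Ucp1 were in that set. Apoc2, and listed genes named only because a fit called them, were chosen after their values were seen. Alternatives were no background correction, an offset of 50, median scaling, the value table, the mean of a gene's probes, other filters, 1.5-fold and each high fat array left out.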

Additional observations from a re-analysis of the deposited data

Results flagged for a closer look

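In 2 members, high fat arrays lay on opposite sides of chow by more than the spread between probes, and with 1 array per group the difference between any 2 of these arrays was not tested. The slope over all 3 generations was tested with limma, and fell for Slc27a1 (adjusted p = 0.0387) and missed the threshold for Gpihbp1 (0.0734). That contrast depends on the processing. In the order Slc27a1, Gpihbp1, limma's adjusted p-values were 0.0693 and 0.115 with median scaling. They were 0.3485 and 0.368 on the authors' value table, and 0.0121 and 0.0379 with no background correction. Slc27a1 was 1.14 above chow on F0 on the log2 scale, at -0.31 on F1 and at -0.67 on F2. Gpihbp1 was above chow by 0.42 on F0 and 0.41 on F1, and at -0.58 on F2. Both Gpihbp1 probes had these directions, while Slc27a1 has 1 probe.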

How the results depend on the processing

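Of 55 counts of members recomputed under the alternatives, 43 stayed within 1.5 times their value and 12 did not. At 1.5-fold in place of 2-fold, 4 members were apart for F0 against chow, 3 for F1, 1 for F2, 3 for F2 against F1 and 6 for F2 against F0, beside 15 to 16.6% of all genes higher and 14.9 to 19.4% lower in the comparisons with chow, 6.95% and 7.65% for F2 against F1, and 10.9% and 12.1% for F2 against F0. From F1 to F2, 1 member (Gpihbp1) was at least 2-fold lower with median scaling and 1 with the authors' value table, beside 0.553% and 1.22% of all genes. From F0 to F2, 1 member passed without background correction and 1 with an offset of 50, beside 0.966% and 1.1% of all genes lower. With each high fat array left out, the members called by limma against chow ranged from 0 to 4, the 4 being without F2. Of all genes, 13.8% rose and 14.1% fell without F2, 5.01% and 4.36% without F0, and 0.00878% and 0% without F1. The slope calls numbered 0 with median scaling and 0 on the value table; leaving out an array leaves that fit no residual degree of freedom, so it was not run. Fewer genes past a fold threshold without background correction follow from the construction of that setting, which keeps the background in every signal; the cause of the other changes was not tested. Of 240 single differences, 225 moved by less than the spread between probes and 15 by more. Of those at least 2-fold in the processing used here, 0 changed sign, and at any size 5 did. The median over all genes of F0 against chow was -0.11 with median scaling, -0.06 on the value table and -0.01 in the processing used here. No paired analysis was possible because each group has 1 array. Depth is not known for arrays; signal over background limits Cd36, Fabp4 and Slc27a4, which lay at most 1.48 log2 units above the lowest detected signal.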

Other observations

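The order of the 4 arrays differed within the set. Cd36, Fabp4 and Aqp7 ran from F0 through F1 and F2 down to chow, Cav1 and Gpihbp1 from F0 through F1 and chow down to F2, Slc27a1 from F0 through chow and F1 down to F2, Lpl from F1 through F0 and chow down to F2, and Slc27a4 from chow down to F0. Neighbours in these orders often differ by less than the spread between probes, as F0 and F1 do for Lpl (0.04), Fabp4 (-0.09) and Gpihbp1 (-0.02). At the level of probes, where Benjamini-Hochberg adjustment runs over more tests, limma's slope over the generations fell for 3 of the 13, beside 0.568% of all detected probes falling and 1% rising: ILMN_2943165 of Aqp7 by 0.93 per generation (adjusted p = 0.0163), ILMN_2607964 of Aqp7 by 0.96 (0.0339) and the probe of Slc27a1 by 0.90 (0.0481). The probe of Cav1 and the brightest of Aqp7 (ILMN_1254953), both called at the level of genes, had adjusted p-values of 0.0586 and 0.0601 there.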
